A study of Mus musculus with 9 samples.

Results

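The miRNAs described here are mmu-miR-128, mmu-miR-129-5p, mmu-miR-129-3p, mmu-miR-137, mmu-miR-138, mmu-miR-153 and mmu-miR-218, a set of small RNAs that are enriched in neurons. They were chosen by name, as every mouse miRNA named miR-128, miR-129, miR-137, miR-138, miR-153 or miR-218 with or without an arm suffix and apart from star strands, and they are 7 of the 650 miRNAs on the array, of which 611 are of mouse and 39 of mouse herpesviruses. Total RNA from 9 cultures was profiled on one-colour Agilent miRNA arrays, whose spots carry short probes and grow brighter with the amount of the miRNA they bind. The cultures held hippocampal neurons of C57BL/6 mice, prepared at postnatal day 1 and grown for 10 days in vitro. Control cultures were untreated (3 arrays). NMDA cultures received N-methyl-D-aspartate, an agonist of a glutamate receptor, at 20 µM (3 arrays), and bicuculline cultures received 50 µM of bicuculline, a blocker of inhibitory GABA(A) receptors that raises synaptic activity (3 arrays). The labels give 4 h for both treatments, whereas the methods describe a brief NMDA pulse that was washed out, and a range of NMDA concentrations. The design text speaks of independent experiments, and the methods state that the 3 replicates of a condition came from independent cell preparations. The labels do not say what arrays of the same replicate number share between groups. The p-values measure the spread between these arrays. The cultures are mixed to an unknown degree, and in such bulk RNA fewer neurons and less of a miRNA per neuron cannot be told apart.

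A miRNA is cut as a short single strand from an arm of a hairpin transcript, and bases 2 to 8 of this strand, the seed, pair with target mRNAs, which are then translated less or degraded. The miRNAs of this set are known from neurons. miR-128 restrains neuronal excitability, miR-129-5p acts on the potassium channel Kv1.1 and in synaptic downscaling, miR-137 acts in neuronal maturation and synaptic vesicle release, miR-138 limits the size of dendritic spines, miR-153 represses components of the vesicle release machinery, and miR-218 is best known from motor neurons and also occurs in hippocampal neurons.

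The mature strands are given from RefSeq (GRCm38.p6), 5′ to 3′, with the seed in capitals, because strands that share a seed can pair with the same sites in mRNAs. All 7 array names were matched to a RefSeq strand. Where the array name carries no arm, the arm for which the plain miRNA name has stood was taken, and the sequence of the array probe itself was not used.
miR-128 (RefSeq mmu-miR-128-3p): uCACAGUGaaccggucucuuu
miR-129-5p (RefSeq mmu-miR-129-5p): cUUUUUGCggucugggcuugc
miR-129-3p (RefSeq mmu-miR-129-2-3p): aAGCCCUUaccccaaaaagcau
miR-137 (RefSeq mmu-miR-137-3p): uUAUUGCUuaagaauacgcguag
miR-138 (RefSeq mmu-miR-138-5p): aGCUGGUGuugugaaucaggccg
miR-153 (RefSeq mmu-miR-153-3p): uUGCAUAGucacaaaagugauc
miR-218 (RefSeq mmu-miR-218-5p): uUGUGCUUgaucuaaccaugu
The 7 strands had 7 distinct seeds, so no pair of them formed a seed family. Among the mouse strands of the RefSeq table, 1 other shared a seed with a member, mmu-miR-7002-3p with miR-218, and no array miRNA carried that name.

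The 7 strands map to 11 positions in 10 hairpins, since miR-128, miR-129-5p, miR-138 and miR-218 are each encoded more than once and the Mir129-2 hairpin gives both miR-129 arms. In GRCm38.p6, Mir128-1 lies at chr1:128202361-128202430 (plus strand) within the bounds of R3hdm1 and Mir128-2 at chr9:112118636-112118711 (minus strand) within those of Arpp21, which encodes a phosphoprotein of neurons. Mir218-1 at chr5:48223942-48224051 and Mir218-2 at chr11:35616816-35616925 (both plus strand) lie within Slit2 and Slit3, genes of axon guidance cues. Mir153 at chr12:117250817-117250885 (plus strand) lies within Ptprn2, a gene of dense-core vesicles, and overlaps the non-coding gene Gm5441. Mir138-2 at chr8:94324311-94324381 (plus strand) lies within the bounds of the nuclear pore gene Nup93, whereas Mir138-1 at chr9:122682876-122682974 and Mir137 at chr3:118433857-118433929 (both plus strand) overlapped no other gene of the table. Mir129-1 at chr6:29022619-29022691 (plus strand) overlapped no other gene, and Mir129-2 at chr2:94241364-94241453 (minus strand) lies within the non-coding Mir670hg and overlaps Mir129b, a hairpin that the RefSeq table places on the plus strand. The overlaps with genes other than Mir129b are by position, without regard to the strand of the other gene. The array reports the mature strand, so the shares of the copies in its signal cannot be told apart.

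The miR-129 hairpins are shown because both of their arms were measured, with every mature strand that RefSeq lists for the hairpin in capitals.
Mir129-1: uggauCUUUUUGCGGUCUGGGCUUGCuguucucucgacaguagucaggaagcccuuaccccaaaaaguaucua
Mir129-2: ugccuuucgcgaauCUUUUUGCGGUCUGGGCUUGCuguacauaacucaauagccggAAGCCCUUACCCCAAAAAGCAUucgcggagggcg
Both hairpins hold the same miR-129-5p strand. The 3p strand of Mir129-2 differs from the closest stretch of Mir129-1 at 1 of its 22 bases, C20U, counted from 1 at the 5′ end of the Mir129-2 strand, and this stretch of Mir129-1 keeps the seed.

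Signals are given as a percentage of the array scale, which is the 75th percentile over 265 probes that exceeded background on every array. Signals of different miRNAs come from different probes and are not set against each other. All 7 miRNAs were well above background on all 9 arrays, as were 155 of the 650, while the star strands of the same hairpins on the array (miR-138*, miR-218-1* and miR-218-2*) were well above background on 0 arrays. An array detected between 161 and 210 miRNAs above background, and no spot was saturated. The arrays lay on 2 slides, with controls 1 and 2, NMDA 1 and 2 and bicuculline 1 on slide 1 (5 arrays) and control 3, NMDA 3 and bicuculline 2 and 3 on slide 2 (4 arrays), and the scanner software version differed between the slides.

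None of the neuron-enriched miRNAs of the set passed the test after NMDA. The count was 0 of 7, where 15 of the 181 miRNAs tested passed (8.29%; limma, adjusted p under 0.05), all 15 of them higher. The miRNAs tested include some that exceeded background throughout only 1 of the groups. When only the 155 miRNAs above background on all 9 arrays were fitted, as all members were, 3 passed. At an unadjusted p under 0.05 there were 0 of 7 members and 20 of 181 miRNAs. The signals of the NMDA and control arrays overlapped for all 7, and over all miRNAs tested 14.9% did not overlap. At shares of 8.29% and 14.9%, counts of 0 of 7 do not set the members apart from other miRNAs. The log2 differences lay between -0.09 for miR-138 and 0.15 for miR-153, with a median of -0.03 against -0.01 over all miRNAs tested. The 95% confidence intervals of all 7 lay within 1.5-fold of no difference, from 0.711-fold to 1.48-fold at their widest. In this fit, which had no block, only those of 2 of 7 lay within 1.2-fold, so it does not exclude smaller changes of the others. With the replicate number as a block the intervals were narrower. All then lay within 1.2-fold except those of miR-129-5p (log2 -0.40 to 0.24) and miR-153 (-0.20 to 0.51). The same arrays gave miR-689, chosen as a change already known from these data, a log2 difference of 3.25 (SE 0.32, limma adjusted p = 0.00032). A rise of that size was thus within reach of the design, which says nothing of changes as small as the members' differences. According to the paper, it is debated whether miR-689 is a true miRNA.

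After bicuculline the count was again 0 of 7, where 1 of the 161 miRNAs tested passed (0.621%). This was miR-212, a miRNA that neuronal activity is known to induce, with a log2 difference of 1.98 (SE 0.29, limma adjusted p = 0.023), and 0 miRNAs passed without bicuculline 1 or without bicuculline 2. At an unadjusted p under 0.05 there were 0 of 7 members and 2 of 161 miRNAs. When only the 155 miRNAs above background on all 9 arrays were fitted, 0 passed. With the replicate number as a block, 2 miRNAs passed, none of them a member. The bicuculline and control signals overlapped for all 7, and over all miRNAs tested 3.11% did not overlap, so these counts do not set the members apart either. The log2 differences lay between -0.16 for miR-138 and 0.22 for miR-129-5p, with a median of -0.06 against -0.02 over all miRNAs tested, and the confidence intervals of 6 of 7 lay within 1.5-fold of no difference. Only that of 1 of 7 lay within 1.2-fold, and with the replicate number as a block those of miR-128 and miR-218 did.

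In the direct comparison of NMDA with bicuculline 0 of 7 passed, where 16 of 181 miRNAs did (8.84%), 15 higher and 1 lower with NMDA. When only the 155 miRNAs above background on all 9 arrays were fitted, 3 passed. At an unadjusted p under 0.05 there were 1 of 7 members, miR-129-5p, and 24 of 181 miRNAs. The signals overlapped for all 7, and over all miRNAs tested 13.3% did not overlap. Here too, counts of 0 of 7 do not set the members apart. The log2 differences lay between -0.30 for miR-129-5p and 0.23 for miR-153, with a median of 0.02 against 0.00 over all miRNAs tested. The confidence intervals of 5 of 7 lay within 1.5-fold of no difference, and that of 1 of 7 within 1.2-fold. These 3 comparisons share arrays and are not independent of each other.

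**Figure D1:**
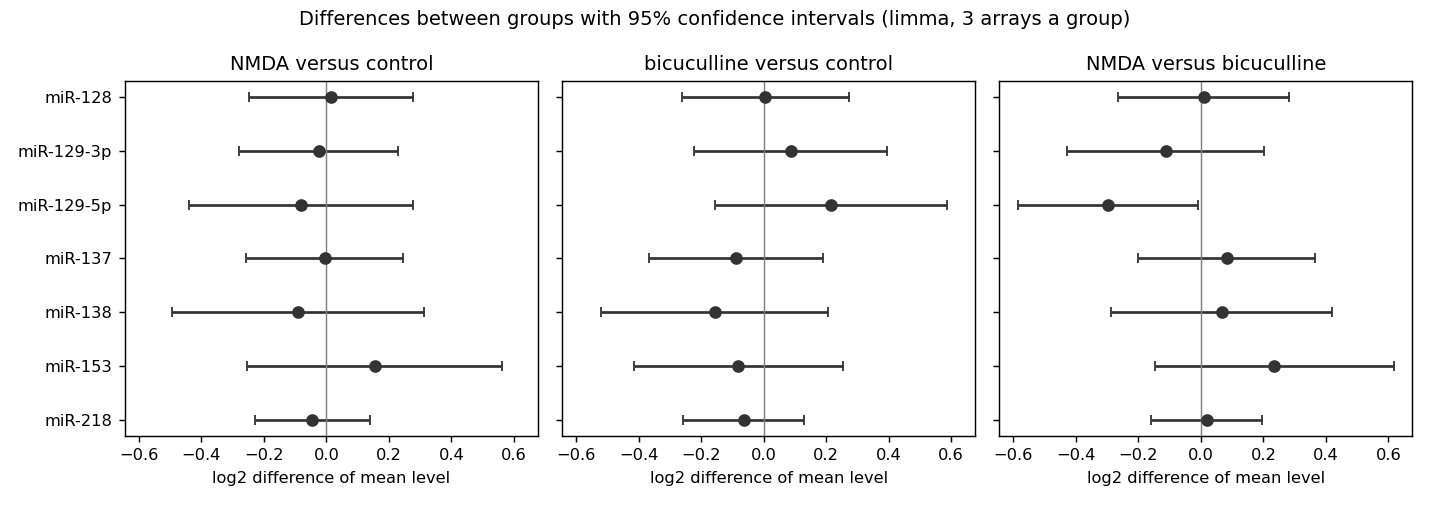
Log2 differences of the mean level (x axis) of the 7 miRNAs (rows) in the 3 comparisons, from limma with 3 arrays a group, where points are estimates and bars 95% confidence intervals. Every interval includes 0 except that of miR-129-5p in NMDA versus bicuculline, which ends at -0.01.

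The lowest unadjusted p of the set was that of miR-129-5p. It had signals of 97.7%, 137.7% and 139.2% of the array scale on the control arrays, 110.9%, 129.7% and 109.7% with NMDA, and 123.3%, 153.4% and 155.0% with bicuculline. The NMDA and bicuculline arrays thus overlapped only through NMDA 2, which lay above bicuculline 1, and the control arrays reached from below all others to above all NMDA arrays. The difference between NMDA and bicuculline was -0.30 on the log2 scale (95% confidence interval -0.58 to -0.01, limma unadjusted p = 0.045, adjusted p = 0.34), which is 0.814-fold. The NMDA array was below the bicuculline array of the same number for 3 of 3 numbers, with differences of -0.15, -0.24 and -0.50. Here and below, agreement in sign at 3 of 3 numbers carries little weight, because 3 signs often agree by chance. In other comparisons of members the signs were mixed, and how often they agree over all miRNAs was not counted. Against control the differences were 0.22 for bicuculline (-0.16 to 0.59, SE 0.16, limma adjusted p = 1.00) and -0.08 for NMDA (-0.44 to 0.28, limma adjusted p = 0.99). The bicuculline array was above the control array of the same number for 3 of 3 numbers, by 0.34, 0.16 and 0.15, and with the replicate number as a block the SE was 0.09 (limma unadjusted p = 0.028, adjusted p = 0.57). Within slides the difference between NMDA and bicuculline was -0.04 on slide 1 and -0.49 on slide 2, with a single bicuculline array on slide 1 and a single NMDA array on slide 2. Both probes for miR-129-5p gave it, at -0.30 for the brighter and -0.28 for the dimmer, although probes on 1 array read the same RNA and are no replicates.

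miR-129-3p, the strand from the other arm, had signals of 525%, 635% and 602% on the control arrays, 518%, 601% and 612% with NMDA, and 522%, 708% and 651% with bicuculline. The array numbered 1 was the lowest of every group, between 518% and 525%, and all groups overlapped. The differences against control were -0.03 for NMDA (95% confidence interval -0.28 to 0.23) and 0.09 for bicuculline (-0.22 to 0.40). The dimmer probe gave a bicuculline difference of -0.08, so the brighter and the dimmer probe differed in sign there. The NMDA array was below the bicuculline array of the same number for 3 of 3 numbers, with log2 differences of -0.01, -0.24 and -0.09.

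The ratio of the arms within each array asks whether they changed unequally. Because the arms are read by different probes, its level says nothing of which arm was more abundant, and only its difference between groups is read. The log2 ratio of miR-129-5p to miR-129-3p was -2.43, -2.21 and -2.11 on the control arrays, -2.22, -2.21 and -2.48 with NMDA, and -2.08, -2.21 and -2.07 with bicuculline. Control arrays spanned nearly the whole range, and the highest NMDA array lay just below the lowest bicuculline array. The mean ratio differed by -0.06 between NMDA and control (two-sided exact permutation test, p = 0.50), by 0.13 between bicuculline and control (p = 0.30, exact) and by -0.19 between NMDA and bicuculline (p = 0.10, exact), where 0.1 is the smallest p that 3 arrays against 3 allow. With both probes of each strand averaged, the last of these gave p = 0.30 (exact permutation test).

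**Figure D2:**
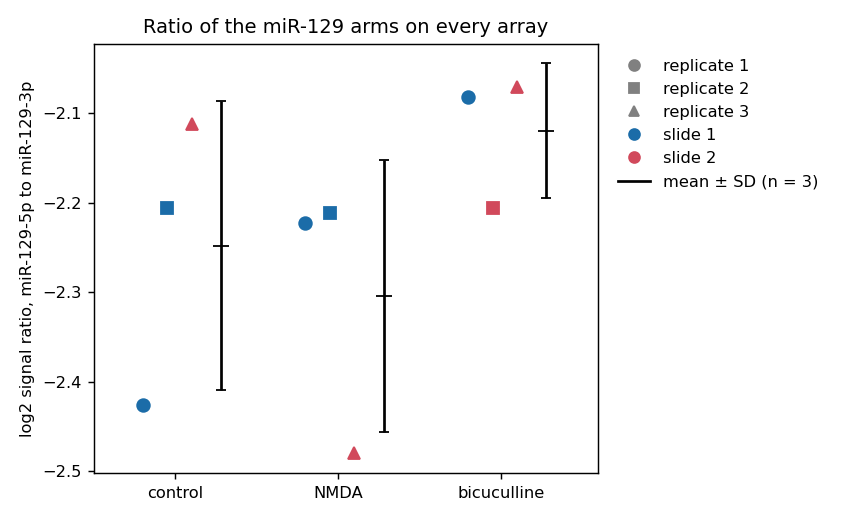
Log2 ratio of the signals of miR-129-5p and miR-129-3p within each array (y axis) for the 3 groups (x axis), with the shape of a point for the replicate number, its colour for the slide and bars for the mean ± SD (n = 3). The NMDA arrays lie between -2.48 and -2.21 and the bicuculline arrays between -2.21 and -2.07, while the control arrays reach from -2.43 to -2.11.

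miR-128 had nearly the same signal in every group. It was at 973%, 966% and 1152% of the array scale on the control arrays, 975.4%, 978% and 1169% with NMDA, and 970%, 971% and 1164% with bicuculline. The array numbered 3 stood apart from the others in each group, and arrays of the same number lay within 0.02 of each other on the log2 scale whatever the treatment. The difference against control was 0.01 for NMDA (95% confidence interval -0.25 to 0.28) and 0.01 for bicuculline (-0.26 to 0.27), and the spread behind both intervals was that of the arrays numbered 3. The NMDA array was above the control array of the same number for 3 of 3 numbers, by 0.02 at most.

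miR-137 had signals of 211%, 215% and 181% on the control arrays, 219%, 205% and 182% with NMDA, and 219%, 179% and 175% with bicuculline. The lower values were the arrays numbered 3 and bicuculline 2, which are the arrays of slide 2. Its difference against control was -0.01 for NMDA (95% confidence interval -0.26 to 0.25) and -0.09 for bicuculline (-0.37 to 0.19), and within slides the bicuculline difference was 0.04 and -0.04.

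miR-138, the miRNA of spine size, had signals of 43.4%, 48.1% and 33.1% on the control arrays, 41.4%, 43.5% and 31.8% with NMDA, and 42.0%, 36.6% and 32.5% with bicuculline. The arrays of slide 2 were again the lowest. On the log2 scale NMDA differed from control by -0.09 (95% confidence interval -0.49 to 0.31) and bicuculline by -0.16 (-0.52 to 0.21), and in both comparisons the treated array was below the control array of the same number for 3 of 3 numbers. Within slides the bicuculline difference was -0.12 on slide 1 and 0.06 on slide 2.

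miR-153 was the member closest to background. Its signals were 11.6%, 9.81% and 13.7% on the control arrays, 16.0%, 10.8% and 12.5% with NMDA, and 12.5%, 9.88% and 10.68% with bicuculline, where signals below 7.94% were set to that floor. The single highest array was NMDA 1, and the groups overlapped. NMDA differed by 0.15 from control (95% confidence interval -0.25 to 0.56) and by 0.23 from bicuculline (-0.15 to 0.62, limma adjusted p = 0.86). The NMDA array was above the bicuculline array of the same number for 3 of 3 numbers, by 0.35, 0.13 and 0.22. With the replicate number as a block this interval was 0.06 to 0.41 (limma unadjusted p = 0.015, adjusted p = 0.11). However, the number was not taken to pair NMDA with bicuculline arrays, since NMDA 2 and bicuculline 2 correlated at -0.02. The blocked interval for NMDA against control was -0.20 to 0.51 (limma unadjusted p = 0.29). Of the 2 probes for miR-153 the second was well above background on 0 arrays, so that miR-153 rested on 1 probe. Within slides the NMDA difference from control was 0.30 on slide 1 and -0.14 on slide 2.

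miR-218 varied the least of the set in the scaled signals. It had signals of 267%, 292% and 283% on the control arrays, 262%, 282% and 272% with NMDA, and 276%, 262% and 267% with bicuculline. All values lay between 262% and 292%, and the SD of the log2 level over the 9 arrays was 0.05, against a median of 0.13 over the 155 miRNAs. In the authors' log2 values, miR-128 (11.96 to 12.15) and miR-153 (7.27 to 7.44) spanned less than miR-218 (10.16 to 10.39). The differences from control were -0.05 for NMDA (95% confidence interval -0.23 to 0.14) and -0.06 for bicuculline (-0.26 to 0.13), the NMDA array was below the control array of the same number for 3 of 3 numbers, and in the fit of NMDA against control, miR-218 had an interval of 0.853-fold to 1.101-fold. After quantile normalization miR-218 passed the NMDA test with a log2 difference of -0.17 (limma adjusted p = 0.042), where the median of all miRNAs tested was -0.14.

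**Figure D3:**
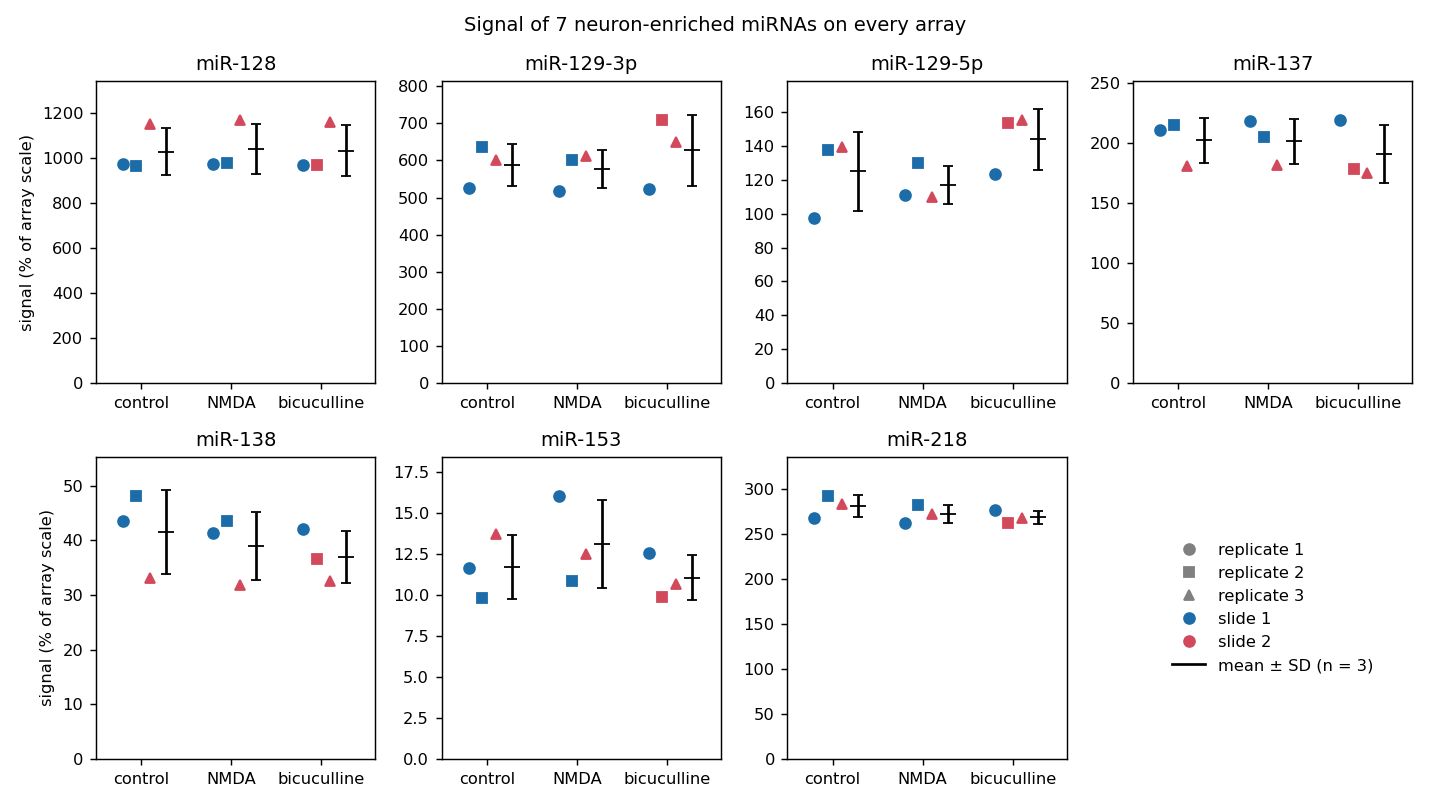
Signal as a percentage of the array scale (y axes, from 0, a different range in each panel) of the 7 miRNAs in the 3 groups (x axes), with the shape of a point for the replicate number, its colour for the slide and bars for the mean ± SD (n = 3). The groups overlap in every panel, the arrays numbered 3 lie for miR-128 between 1152% and 1169% in all groups, and the slide 2 arrays of miR-137 and miR-138 lie below those of slide 1.

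The variation of the members between arrays was divided by treatment and by replicate number. The design of 3 groups by 3 replicate numbers divides the sum of squares of each miRNA's log2 level into a part between treatments, a part between replicate numbers and a remainder. For miR-128, 99.7% of it lay between replicate numbers and 0.229% between treatments, although the share between numbers was 63.4% in the authors' log2 values and 51.8% after quantile normalization. The share between replicate numbers was 81.9% for miR-129-3p, 77.9% for miR-138, 72.1% for miR-137, 54.7% for miR-153 and 48.0% for miR-129-5p. It exceeded the share between treatments for 6 of 7 members (5 of 7 after quantile normalization or scaling to the median, 7 of 7 with normexp or the mean of both probes), and for 119 of the 155 miRNAs measured on all arrays. miR-218 was the exception, with 18.4% between replicate numbers, 27.0% between treatments and the rest in the remainder, but in the authors' log2 values its shares were 57.3% and 11.3%, and from the dimmer probe 56.2% and 22.5%. For miR-129-5p the share between treatments was the larger in the authors' values (48.0% against 35.0%) and with scaling to the median (47.4% against 42.6%). The medians over the members were 72.1% between replicate numbers and 10.45% between treatments, against 49.9% and 11.9% over the 155 miRNAs. miR-129-5p had the highest share between treatments of the set, 34.0%, although miR-218 had the highest after quantile normalization (71.8%) and miR-138 with the dimmer probe (40.1%).

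**Figure D4:**
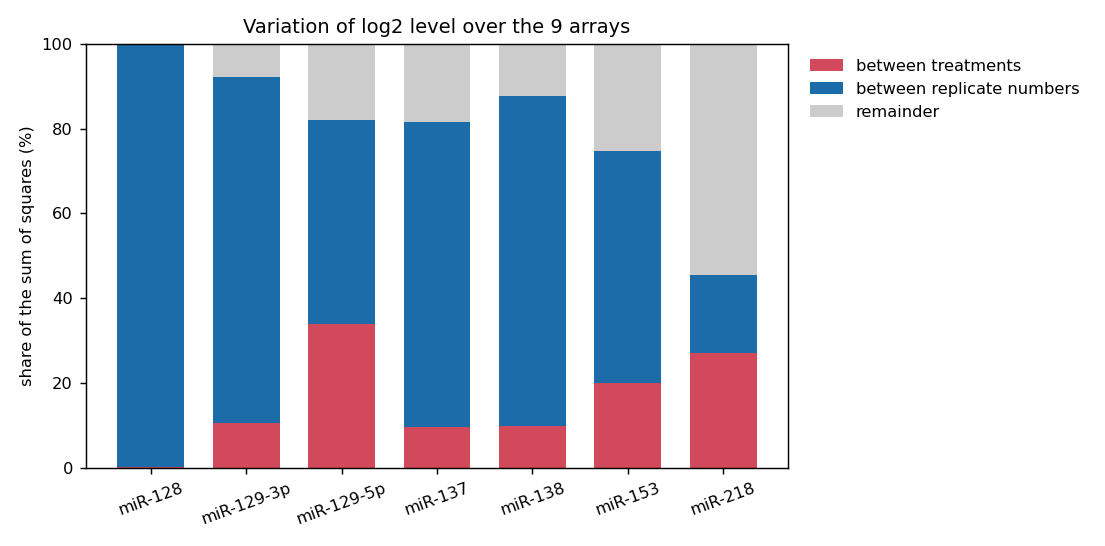
Share of the sum of squares of the log2 level over the 9 arrays (y axis, in percent) that lay between treatments, between replicate numbers and in the remainder, for the 7 miRNAs (x axis). The part between replicate numbers reaches from 18.4% for miR-218 to 99.7% for miR-128, and the part between treatments from 0.229% for miR-128 to 34.0% for miR-129-5p.

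In a limma F test for the replicate number with the treatment as covariate, chosen after the values were seen, 4 of 7 members passed, where 29.7% of the 155 miRNAs did. They were miR-128 (adjusted p = 0.015), miR-129-3p (adjusted p = 0.018), miR-138 (adjusted p = 0.018) and miR-137, which was at the threshold (adjusted p = 0.0499). miR-129-5p (adjusted p = 0.055), miR-153 (adjusted p = 0.071) and miR-218 (adjusted p = 0.70) did not pass.

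The slide moves with the replicate number, since all arrays numbered 1 lay on slide 1 and all numbered 3 on slide 2, and only those numbered 2 were divided. In limma with the treatment as covariate, 3 of 7 members differed between slides, where 25.8% of the 155 miRNAs did. miR-138 was lower on slide 2 by a log2 difference of -0.39 (95% confidence interval -0.53 to -0.24, adjusted p = 0.0072), with signals of 31.8% to 36.6% there and 41.4% to 48.1% on slide 1. miR-137 was lower on slide 2 by -0.25 (-0.36 to -0.15, adjusted p = 0.0074), with signals of 175% to 182% and 205% to 219%. Relative to the median of all 155 miRNAs, both remained lower on slide 2 under each of 4 other ways of processing the arrays (quantile normalization, normexp, the dimmer probe and the authors' log2 values), by -0.27 to -0.24 for miR-137 and by -0.41 to -0.11 for miR-138. miR-128 was higher on slide 2 by 0.21 (0.07 to 0.36, adjusted p = 0.042), and by 0.07 to 0.22 relative to the median under these 4. A change of the array scale leaves these relative values as they are. The bicuculline 2 array tells these apart in part, because it lay on slide 2 while control 2 and NMDA 2 lay on slide 1. Its miR-128 signal, 971%, was that of the other arrays numbered 2 (966% and 978%). Its miR-137 signal, 179%, lay with the slide 2 arrays and not with the other arrays numbered 2 (215% and 205%). Its miR-138 signal, 36.6%, lay between the arrays numbered 3, at 31.8% to 33.1%, and the other arrays numbered 2, at 43.5% and 48.1%. This rests on 1 array, and the part of the slide in the differences between replicate numbers was not tested further.

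Within slides, the sign of the log2 difference was that of all arrays on both slides for 3 of 7 members in NMDA versus control, 2 of 7 in bicuculline versus control and 3 of 7 in NMDA versus bicuculline. The within-slide differences lay between -0.11 and 0.30 on slide 1 and between -0.34 and 0.03 on slide 2 for NMDA versus control. For bicuculline versus control they lay between -0.15 and 0.23 on slide 1 and between -0.42 and 0.17 on slide 2, and for NMDA versus bicuculline between -0.05 and 0.10 on slide 1 and between -0.49 and 0.28 on slide 2.

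Each member was read by 2 probes, and the brighter was used. For the 6 members with both probes well above background on all arrays, the dimmer probe gave the same sign as the brighter in 12 of 18 differences. The probes differed by 0.21 at most and by a median of 0.04 on the log2 scale. The widest gap was in miR-138 between NMDA and bicuculline, with 0.07 from the brighter probe and -0.15 from the dimmer one.

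**Figure D5:**
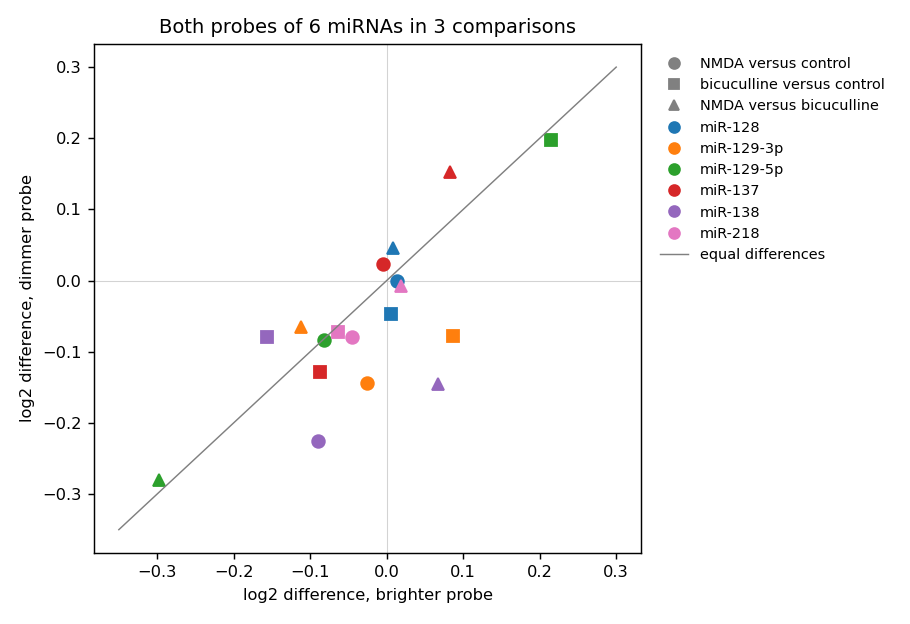
Log2 differences of 6 miRNAs in 3 comparisons from the brighter probe (x axis) and the dimmer probe (y axis), where colours mark miRNAs, shapes mark comparisons and the line marks equal differences. The points of miR-129-5p lie close to the line at -0.30, -0.08 and 0.22, and those of miR-138 lie farthest from it.

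The miR-153 value also depended on how the scanner software summed its probes. On the 5 arrays of slide 1, the software's total signal for miR-153 was 7.98 to 13.5 times the sum of its probe totals, whereas on the 4 arrays of slide 2 it was 0.974 to 1.103 times that sum. For the other 6 members the total differed from the sum by at most 0.00062% on any array. The same excess, by more than 1.5 times, was found for 49 to 58 detected miRNAs on each slide 1 array and for 0 to 2 on each slide 2 array. Read from this total, miR-153 differed by a log2 value of -1.19 between bicuculline and control, by 1.13 between NMDA and bicuculline and by -0.06 between NMDA and control, with SEs of 1.21, 1.23 and 1.197 and limma adjusted p-values of 0.81, 0.89 and 1.00.

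The miRNAs whose log2 levels, centred on their own mean, were closest to those of a member over the 9 arrays were found among 154 candidates. The closest to miR-128 were let-7i and let-7c, with root mean square differences of 0.04 and 0.04 against a median of 0.17 over the candidates. They were miR-92a (0.07) and miR-204 (0.08) for miR-129-3p, and miR-431 (0.10) and miR-92a (0.12) for miR-129-5p. For miR-137 they were miR-376b (0.06) and miR-411 (0.07), and for miR-138 they were miR-326 (0.10) and miR-29c (0.11). For miR-153 they were miR-19b (0.11) and miR-101a (0.12), and for miR-218 they were miR-195 (0.05) and miR-30a (0.05).

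Among 23 other neuron-enriched miRNAs, 16 were well above background on all arrays and 18 were tested. Of these, 0 passed for NMDA, 1 passed for bicuculline and 1 passed for NMDA versus bicuculline, in both cases miR-212. Their median log2 differences were -0.04, -0.03 and -0.01. miR-132, which shares its transcript with miR-212, had a log2 difference of 0.64 after bicuculline (SE 0.17, limma adjusted p = 0.39). The 5 microglial and immune miRNAs (miR-142-3p, miR-142-5p, miR-150, miR-155 and miR-223) and the 3 of red blood cells (miR-451, miR-486 and miR-144) were well above background on 0 arrays. Of 7 miRNAs of astrocytes and other glia, 3 were well above background on all arrays. The summed signal of all 7 was 306% to 336% of the scale in control, 320% to 322% with NMDA and 310% to 365% with bicuculline. Of 3 oligodendrocyte miRNAs 1 was measured on all arrays, miR-338-3p, with miR-219 at background, and the summed signal of the 3 was 30.7% to 41.5%, 29.3% to 40.4% and 31.8% to 35.1%. The endothelial miR-126-3p was well above background on 5 arrays, and of 4 muscle miRNAs miR-1 alone was measured. Of these miRNAs of other cell types, 0 of those that could be tested passed (limma), 0 of them also at an unadjusted p under 0.05, and the part of such cells in the members' signals was not tested.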

How the data were processed

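Of each array the authors deposited the scanner output, in which spot intensity had been background-subtracted by Agilent Feature Extraction (10.7.1.1 on slide 1, 10.7.3.1 on slide 2) without normalization between arrays, and a table of processed log2 values whose scaling is not given in the sources used here. Control spots and 3278 spots flagged as outliers were left out, and each probe took the mean of its remaining spots. It counted as well above background when 50% or more of them carried the scanner's mark. Signals were divided by the array scale, which lay between 416 and 645 intensity units, floored at 7.94% of it and put on the log2 scale, and the brightest probe stood for a miRNA.

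The 6 arrays of each comparison were fitted with limma 3.58.1 (R 4.3.3), two-sided and without covariates, over the miRNAs that exceeded background throughout at least 1 of the groups, with Benjamini-Hochberg adjustment over all of them. The arm ratio was tested by exact permutation in scipy 1.17.1. On simulated data, where 20 miRNAs had been given a log2 change of 1, the limma step recovered 92% of them for NMDA versus control (181 miRNAs), 94% for bicuculline versus control (161) and 93.5% for NMDA versus bicuculline (181). Of its calls there, 3.92%, 5.53% and 6.27% were false. The noise was drawn independently for each array, without differences between replicate numbers or slides. Changes smaller than 1, such as the differences of the members, were not simulated. Alternatives covered scaling, background, floor, filter, probe summary, blocks and single arrays. The number of arrays limits the precision.

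Members, lists and the rule for other named miRNAs (the 2 closest to each member, with miR-689, miR-212 and miR-132 as changes on the same arrays) were chosen with earlier results of these data known. Between arrays of the same number, deviations from group means over 155 miRNAs correlated at 0.35 to 0.77 for NMDA and control and at 0.10 to 0.70 for bicuculline and control, each pair above 0.1. The number was therefore taken to pair these arrays in the blocked fits, while the main fits had no block. For NMDA and bicuculline 2 of 3 pairs exceeded 0.1, so the number was not taken to pair them, although the blocked fit was run there too. Arrays of different numbers on the same slide correlated at -0.18 to 0.44, so this cut cannot separate the number from the slide. Control 2 correlated at 0.104 with bicuculline 2 and at 0.29 with bicuculline 1. Host genes are overlaps in the RefSeq gene table of GRCm38.p6.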

Additional observations from a re-analysis of the deposited data

How the results depend on the processing

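The statement that 0 of 7 members passed was the same in each comparison under all alternatives but 2, among them leaving out each array, where the count was 0 throughout. With quantile normalization 1 passed for NMDA versus control (miR-218), and when the percentile was taken over all probes (all-probe scaling) 4 passed for NMDA versus bicuculline (miR-128, miR-129-3p, miR-129-5p and miR-218). Under that scaling the median of all miRNAs was -0.43 for NMDA versus control, against -0.01 in the main setting, and -0.47 for NMDA versus bicuculline, against 0.00, where it called 143 of 181, and relative to this median the 4 differed by 0.00, -0.12, -0.30 and 0.01. Over all alternatives the number of miRNAs called lay between 3 and 24 for NMDA versus control, 0 and 2 for bicuculline versus control, and 3 and 143 for NMDA versus bicuculline. With the filter for all 9 arrays, which leaves out miRNAs not well above background on every array, it fell to 3, 0 and 3. Without a filter it fell to 5, 0 and 9, and with the total gene signal to 5, 0 and 7. Quantile normalization gave 24, 0 and 22, and the dimmer probe, an alternative added after seeing the data, gave 11, 2 and 9. The methods' t-test after Benjamini-Hochberg gave 12, 0 and 10, with 0 members among them.

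With the replicate number as a block, 16, 2 and 17 miRNAs and 0 members passed. The block narrowed the median width of the members' confidence intervals from 0.53 to 0.24 for NMDA versus control and from 0.62 to 0.38 for bicuculline versus control. For NMDA versus bicuculline, where bicuculline 2 did not correlate best with the others numbered 2, the smallest adjusted p of a member was 0.092 (miR-129-5p, limma). At an unadjusted p under 0.05 there were 2 members in this blocked fit, miR-129-5p and miR-153. The blocked differences of the arm ratio were -0.06, 0.13 and -0.19, with p = 0.75, 0.50 and 0.25 by exact sign changes within numbers, of which 0.25 is the smallest possible. Leaving out each array, the arm ratio differed by -0.15 to 0.03 for NMDA versus control, 0.04 to 0.20 for bicuculline versus control and -0.23 to -0.10 for NMDA versus bicuculline. It turned sign for NMDA versus control under quantile normalization (0.13) and without NMDA 3 (0.03) or control 3 (0.01).

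Of 546 alternative values of single members, 96 had the other sign and 24 of these had also moved by more than the SD between arrays. Of the 24, 11 came from all-probe scaling, median scaling or no scaling, which shift all miRNAs of an array alike and leave a member's place relative to the median nearly as it was, and 13 from other alternatives. For NMDA versus control these were, with all-probe scaling, miR-128 (-0.41) and miR-153 (-0.27), with quantile normalization miR-153 (-0.16), within slide 2 miR-153 (-0.14), and without scaling miR-218 (0.016). For bicuculline versus control they were miR-128 without scaling (-0.14), miR-129-3p (-0.15) and miR-153 (0.23) within slide 1, miR-137 (0.075) and miR-218 (0.11) with the total gene signal, and miR-218 with the sum of probe totals (0.019), an alternative chosen after seeing the data. For NMDA versus bicuculline all-probe scaling gave miR-128 (-0.47), miR-137 (-0.40), miR-138 (-0.41), miR-153 (-0.24) and miR-218 (-0.46), and the total gene signal gave miR-138 (-0.15) and miR-218 (-0.15). There, quantile normalization gave miR-153 (-0.078) and miR-218 (-0.15), median scaling miR-218 (-0.070), the sum of probe totals miR-218 (-0.065), and for miR-129-3p no scaling gave 0.10 and slide 1 alone 0.10.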
